A study of Mus musculus with 4 samples.

Results

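The castrated and intact luminal cells described here came from the RFP+ fraction of the anterior prostate (AP) and were barcoded separately within the second of 3 adult droplet libraries. A cell was kept with 750 to 7500 detected genes and less than 10% mitochondrial UMIs. Its population was read from its MULTI-seq barcode, a lipid-anchored DNA tag added to each sorted fraction before pooling. The counts of each tag were divided by their median over the library, and a cell was assigned where the highest ratio was at least 3 and at least 2 times the second. Luminal cells were those with at least 1 *Epcam* UMI, no *Ptprc* UMI, at least 5 *Krt8* plus *Krt18* UMIs and fewer than 3 *Krt5* plus *Krt14* UMIs per 10000. This gave 253 castrated and 123 intact cells, 376 of the 6034 cells of run 2 and of the 11674 cells of the adult libraries. All mice were adult P2-*Runx1*:RFP males (older than 8 weeks) on the ICR (CD-1) strain, in which RFP is driven by the proximal P2 promoter of *Runx1*, and the castrated mice had been castrated for more than 4 weeks. By the paper's scheme the reporter sits in an allele of *Runx1*, and wild-type *Runx1* is expressed from the other allele. The reporter marks activity of the P2 promoter and is not a lineage mark. The paper reports that RFP+ cells were a minority of the intact epithelium and most of the castrated one. After castration, high RUNX1 was no longer confined to the ducts near the urethra. The RFP+ fraction therefore need not hold the same kinds of luminal cells in both treatments, and this was not tested. Each treatment was 1 pool of mice within run 2, so treatment and pool cannot be told apart. Intact AP RFP+ luminal cells of run 1 (181 cells) and run 3 (158 cells) were the other replicates, and 27 castrated RFP+ luminal cells of run 1, whose lobes had been pooled, were set beside them.

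In run 3 the labels give the same tag sequence to the intact AP RFP+ and the intact ventral prostate RFP+ fractions, and cells were assigned by tag name. The tags that define the compared fractions of run 2 are shown because every cell's treatment rests on them, and all letters are tag bases.
Intact AP RFP+, run 2: GGAGAAGA
Castrated AP RFP+, run 2: GAAAAGGG

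Luminal cells of the prostate secrete seminal fluid proteins and depend on androgen, which raises genes such as *Fkbp5*. Castration removes testicular androgen, the gland regresses, and part of the luminal epithelium survives. Near the urethra, proximal luminal cells differ from distal secretory ones in their keratins and surface proteins, among them *Krt4* and *Psca*, and RUNX1 is a transcription factor of blood formation that also acts in epithelia.

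Of the cells carrying the AP RFP+ tags in run 2, 52.7% of 480 castrated and 22.2% of 554 intact cells were luminal by this rule. The castrated sum held 4996754 UMIs (median 12784 per cell) and the intact sums of runs 1, 2 and 3 held 3083891, 2236889 and 2010740 (medians 13560, 9972 and 10490.5). The keratins of the rule are given as a description only. Median *Krt8* plus *Krt18* was 81.2 UMIs per 10000 in castrated cells and 25.1 in intact cells of run 2, with 32.0 and 21.1 in intact cells of runs 1 and 3. The luminal label was thus met well above its limit in most cells: no cell of run 2 lay between 5 and 6, and 1 castrated cell lay between 4 and 5, just outside. For *Krt5* plus *Krt14*, 4 castrated and 2 intact cells lay between 2 and 3, just inside, and 5 and 4 cells between 3 and 4, just outside. Runs 1 and 2 shared 6 cell barcodes and runs 2 and 3 shared 5, of which 0 belonged to AP RFP+ luminal cells.

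A small number of cells in run 2 stood apart by *Sbp*, which encodes spermine binding protein, a secretory protein of the ventral prostate (VP). In run 2, 15 of 123 intact and 21 of 253 castrated cells had at least 100 *Sbp* UMIs per 10000, against 0 of 181 in run 1 and 1 of 158 in run 3. These *Sbp*-rich cells held 41.3% of the intact and 21.4% of the castrated UMIs of run 2. Among intact VP RFP+ luminal cells, 58 of 68 in run 1 and 136 of 150 in run 2 were *Sbp*-rich. Among castrated VP RFP+ luminal cells of run 2, 38 of 176 were. In the dorsolateral prostate (DLP), 46 of 87 intact RFP+ luminal cells of run 3 were *Sbp*-rich. The tag of the intact DLP RFP+ fraction called 0 cells in runs 1 and 2. The paper reports that this labelling failed. Whether untagged DLP cells entered the AP RFP+ groups was not tested. The limit of 100 was chosen after the data were seen. Values without *Sbp*-rich cells are given for part of the genes and lists whose calls or fold changes moved. Where none is given, the result may still have changed.

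**Figure D1:**
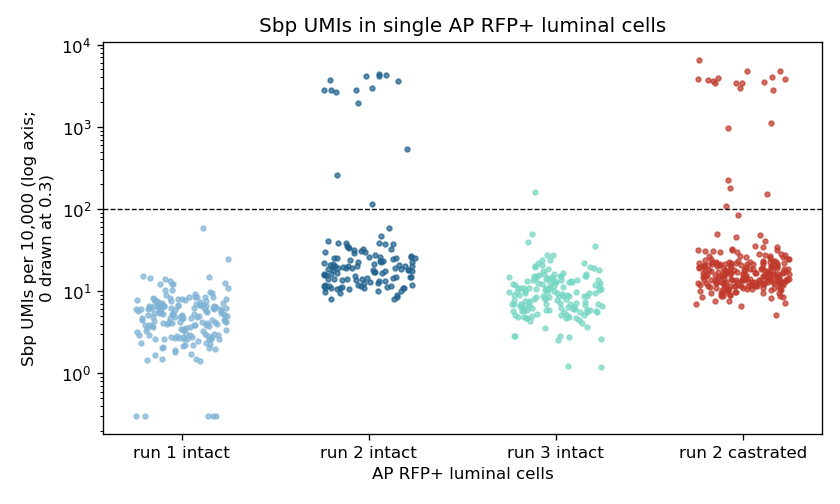
*Sbp* UMIs per 10000 UMIs (log axis) in each AP RFP+ luminal cell of 3 intact groups and the castrated group; each point is a cell, and the dashed line marks 100. In run 2, 15 intact and 21 castrated cells lie above the line, against 0 and 1 in the intact cells of runs 1 and 3.

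Castrated and intact AP RFP+ luminal cells were compared as UMI counts summed per run and treatment, 1 castrated sum against 3 intact sums, with levels in CPM (UMIs scaled to 1000000 per sum). *Psca*, *Krt4*, *Krt7* and other proximal luminal genes were lower in castrated cells, *Lpl*, *Basp1*, *Thbs1* and *Pnliprp1* were higher, and *Runx1* did not pass the test. With edgeR (quasi-likelihood, Benjamini-Hochberg), 307 of 10661 genes (2.88%) fell under an adjusted p of 0.05. Castrated cells were higher in 136 of them (1.28%) and lower in 171 (1.6%). Their castrated level lay outside the range of the 3 intact sums in all 307, but so did that of many genes that were not called: 23.1% of the genes tested lay above the intact range and 33.7% below it. The lone castrated sum is assumed to vary like the intact sums, and the p-values measure the spread between intact runs. On simulated counts for this comparison, false calls were more frequent than the threshold names in both edgeR and DESeq2. Without the *Sbp*-rich cells 601 of 10640 genes were called (5.65%; 2.55% higher, 3.1% lower), including 305 of the 307. Leaving out the intact sum of run 1 gave 579 calls (5.8%), and with run as a block over all sorted populations 1185 genes were called (11.1%), including 277 of the 307. In sums, fewer cells of a kind and less RNA per cell cannot be told apart.

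Proximal luminal markers were the group with the most falls. Of 32 genes of this list, which the study drew from these samples and which is therefore not independent evidence of a direction, 0 rose, 16 fell and 16 did not pass, with a median log2 fold change of -2.67 against -0.03 over all genes tested. Without *Sbp*-rich cells 20 fell. *Psca* (chr15:74714839-74717069, GRCm38), a GPI-anchored surface protein, was at 7641, 4169 and 5768 in the intact sums of runs 1, 2 and 3 and 147 in the castrated sum. The castrated level was below every intact one (log2 fold change -5.16, standard error 0.56, edgeR adjusted p = 0.0105), although with run as a block the adjusted p was 0.0944. *Krt4* (chr15:101918535-101924735), a keratin of mucosal epithelia, was at 542, 274 and 223 in the intact sums of runs 1, 2 and 3 and 22.8 in the castrated sum (log2 fold change -3.75, standard error 0.53, edgeR adjusted p = 0.018). *Krt7* (chr15:101411043-101430313), a keratin of simple and ductal epithelia, was at 562, 281 and 330.2 in the intact sums of runs 1, 2 and 3 and 24.6 in the castrated sum (log2 fold change -3.82, standard error 0.43, edgeR adjusted p = 0.0112). For all 3 genes the castrated sum of run 2 lay below every intact sum. In the castrated cells of pooled lobes of run 1 *Psca* was at 778, *Krt4* at 179 and *Krt7* at 164 CPM, also below the intact range but closer to it. With those cells added, the log2 fold change was -2.06 for *Krt4* (adjusted p = 0.204) and -2.33 for *Krt7* (adjusted p = 0.121), so neither passed, and -3.85 for *Psca* (adjusted p = 0.0293).

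The largest falls by the naming rule were mostly in the same list. *Sprr2a3*, a small proline-rich protein of the epithelial envelope with near-identical copies and therefore of uncertain counting, was at 627, 263 and 546 in the intact sums of runs 1, 2 and 3 and 6.00 in the castrated sum (log2 fold change -6.14, standard error 0.62, edgeR adjusted p = 0.00973). *Gsta3*, a glutathione transferase outside the list, was at 306, 168 and 314 in the intact sums of runs 1, 2 and 3 and 4.2 in the castrated sum (log2 fold change -5.81, standard error 0.53, edgeR adjusted p = 0.00973). *Acsm3*, a medium-chain acyl-CoA synthetase, was at 151, 83.6 and 89 in the intact sums of runs 1, 2 and 3 and 2.6 in the castrated sum (log2 fold change -5.20, standard error 0.42, edgeR adjusted p = 0.00973). The castrated sum of run 2 was far below every intact sum for each. In the castrated cells of run 1 *Sprr2a3* was at 182, *Gsta3* at 17.7 and *Acsm3* at 22.2 CPM, and with those cells added *Sprr2a3* did not pass (log2 fold change -2.72, adjusted p = 0.268). The log2 fold changes were -5.16 for *Sbspon*, -4.79 for *Kcnn4* (a calcium-activated potassium channel), -4.61 for *Rad51b* (a DNA repair factor), -4.33 for *Gsdmc3* (a gasdermin), -4.28 for *Smim6* and -4.03 for *Aqp5* (a water channel), all called by edgeR. With the run 1 cells added *Kcnn4* (-3.12, adjusted p = 0.115) and *Gsdmc3* (-3.15, adjusted p = 0.102) did not pass, and without *Sbp*-rich cells *Kcnn4* had a log2 fold change of -5.37.

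*Runx1* and *Tspan1*, of the proximal list, did not pass. *Runx1* (chr16:92601466-92826149), whose promoter drives the sorted reporter, was at 95.7, 127 and 116 in the intact sums of runs 1, 2 and 3 and 97.9 in the castrated sum (log2 fold change -0.11, standard error 0.36, edgeR adjusted p = 0.91), so the groups overlapped. The sort selected cells for activity of this promoter, so its level is not independent of the sort. Within run 2 the castrated *Runx1* level was 0.774 times the intact one (95% counting interval 0.667 to 0.899, no test). Without *Sbp*-rich cells *Runx1* was at 95.7, 199 and 113 CPM in the intact sums of runs 1, 2 and 3 and 115 in the castrated sum. Its paralog *Runx2* was at 34, 13 and 19.4 in the intact sums of runs 1, 2 and 3 and 3.4 in the castrated sum (log2 fold change -2.53, standard error 0.49, edgeR adjusted p = 0.0478), and with run as a block the adjusted p was 0.157, and 0.135 with the castrated cells of run 1 added. *Tspan1*, a tetraspanin, was at 3072, 1184 and 1235 in the intact sums of runs 1, 2 and 3 and 736 in the castrated sum and did not pass (edgeR adjusted p = 0.312); with the block it did (0.0194).

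**Figure D2:**
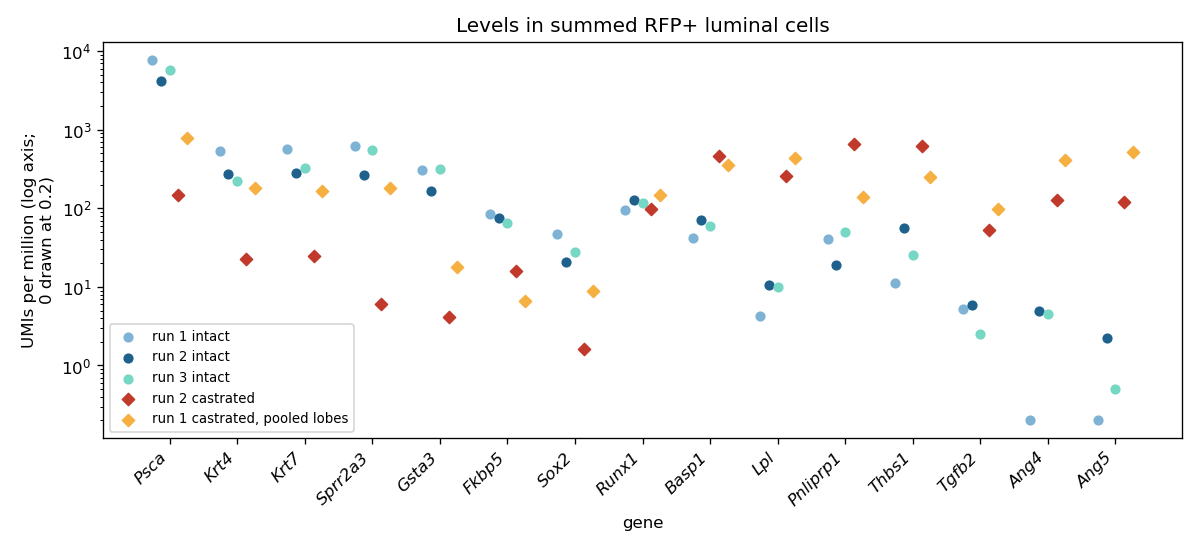
CPM (log axis) of 15 genes in summed RFP+ luminal cells; circles are the 3 intact AP sums, the red diamond is the castrated AP sum of run 2 and the orange diamond is the castrated sum of pooled lobes of run 1. The red diamond lies below all circles from *Psca* to *Sox2*, within their range for *Runx1*, and above all circles from *Basp1* to *Ang5*.

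The share of AP RFP+ luminal cells with a *Krt4* UMI was lower in the castrated group. A *Krt4* UMI was found in 40 of 253 castrated cells (15.8%, exact Clopper-Pearson 95% interval 11.5% to 20.9%) and in 81 of 123 intact cells of run 2 (65.9%, 56.8% to 74.2%). In intact cells of runs 1 and 3 the shares were 80.7% and 58.9%, and 12 of 27 castrated cells of pooled lobes in run 1 had one (44.4%, 25.5% to 64.7%). Leukocytes of run 2 (*Ptprc*-positive, *Epcam*-negative), which should lack the gene, gave 0 of 331, which allows a share of up to 0.906% (3 counts of the total). Their median depth was 5933 UMIs. Thinned to 3000 UMIs per cell, with 1 castrated and 4 intact cells too shallow and left out, the shares of castrated and intact cells were 6.75% and 46.2%. These intervals cover counting error only, and no test was made.

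For *Psca* the shares were 13.8% castrated and 83.7% intact in run 2, against 3.02% in leukocytes, and 6.35% and 76.5% after thinning. For *Lpl*, the lipoprotein lipase, they were 74.7% and 6.50%, against 20.8% in leukocytes, so the intact share lay below that of the leukocytes. In run 2 the summed leukocytes had 106 CPM of *Lpl* and the intact luminal sum 10.7. Leukocytes are therefore no background for this gene. *Basp1*, a membrane-bound signalling protein that leukocytes also express (62.8%), was found in 81.4% of castrated and 17.9% of intact cells. *Runx1* was found in 62.1% and 65.9%, and after thinning in 25.8% and 37.0% with intervals that overlapped both times.

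**Figure D3:**
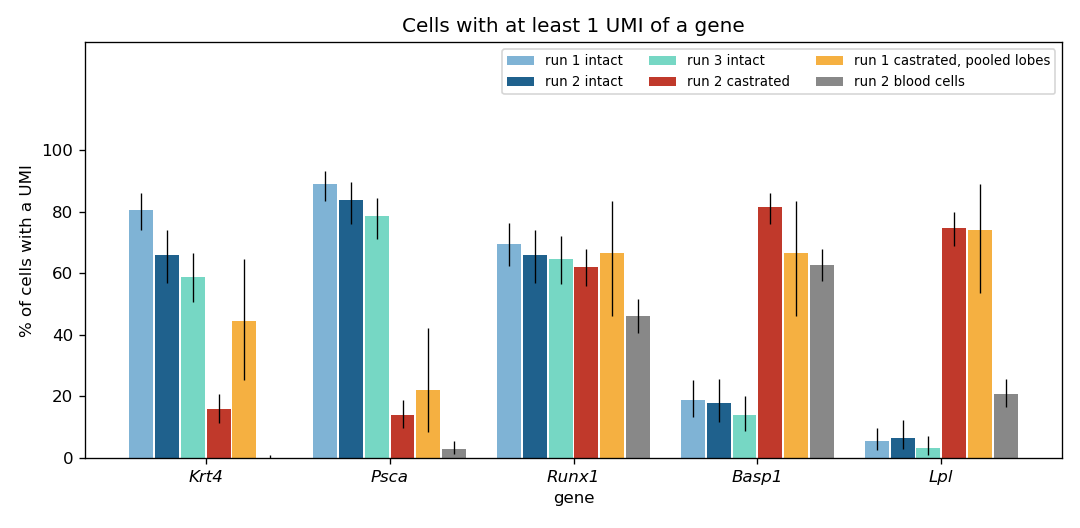
Share of cells with at least 1 UMI of 5 genes, in percent, with exact 95% intervals as bars; colours are the intact AP RFP+ luminal cells of 3 runs, the castrated cells of run 2, the castrated cells of pooled lobes of run 1 and the leukocytes of run 2 (drawn as blood cells). Castrated shares of run 2 are below all intact shares for *Krt4* (15.8%) and *Psca* (13.8%) and above them for *Basp1* (81.4%) and *Lpl* (74.7%).

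Within the castrated cells, *Krt4* and the raised genes were not exclusive. Of the 40 castrated cells with a *Krt4* UMI, 57.5% had an *Lpl* UMI and 82.5% a *Basp1* UMI, and of the 213 without one, 77.9% and 81.2% did. A *Psca* UMI was found in 35% of the former and 9.86% of the latter, against 97.5% of intact *Krt4*-positive cells of run 2. The intact *Krt4*-positive cells of runs 1, 2 and 3 held 6, 1 and 1 *Lpl* UMIs, so a fitted fold of *Lpl* in such cells depends on the prior count. When only cells with a *Krt4* UMI were summed, 140 of 9194 genes were called (1.52%), 123 of which were among the 293 main calls that could be tested. In these sums *Lpl* had a log2 fold change of 7.36 (edgeR adjusted p = 0.000258), *Psca* of -3.62 (adjusted p = 0.0246), and 10 of the 32 proximal luminal markers fell, against 0.718% of all genes.

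Genes that the study lists as markers of castrated luminal clusters rose. Of 22, 12 rose, 0 fell and 10 did not pass, with a median log2 fold change of 1.62 (13 rose without *Sbp*-rich cells). This list was also chosen on these samples and is not independent evidence. *Lpl* (chr8:68880491-68907448) was at 4.22, 10.7 and 9.95 in the intact sums of runs 1, 2 and 3 and 261 in the castrated sum (log2 fold change 5.11, standard error 0.48, edgeR adjusted p = 0.00973). *Basp1* (chr15:25363277-25413764) was at 41.5, 70.2 and 59.7 in the intact sums of runs 1, 2 and 3 and 462 in the castrated sum (log2 fold change 3.1, standard error 0.41, edgeR adjusted p = 0.0162). *Thbs1*, the matrix glycoprotein thrombospondin 1, was at 11.3, 56.8 and 25.9 in the intact sums of runs 1, 2 and 3 and 625 in the castrated sum (log2 fold change 4.36, standard error 0.75, edgeR adjusted p = 0.0344). For all 3 the castrated sum lay above every intact sum, with the widest intact spread in *Thbs1*. In the castrated cells of pooled lobes of run 1, *Lpl* was at 437, *Basp1* at 357 and *Thbs1* at 250.4 CPM, also above the intact range, and with these cells added *Thbs1* had an adjusted p of 0.0571. The other risers were *Plet1* (2.63), *Bcl2l14* (2.64), *Tmem45a* (2.22), *Prlr* (1.99, the prolactin receptor), *Lmo7* (2.10), *Ahr* (1.62, the aryl hydrocarbon receptor), *Alcam* (1.46, an adhesion protein), *Krt23* (1.62) and *Crym* (3.55, a thyroid hormone-binding protein).

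Outside these lists, the largest rises by the naming rule included secreted proteins. *Pnliprp1*, a lipase-related protein, was at 41.2, 18.8 and 50.2 in the intact sums of runs 1, 2 and 3 and 657 in the castrated sum (log2 fold change 4.31, standard error 0.42, edgeR adjusted p = 0.00973). *Gdf15*, a stress-induced cytokine, was at 14.3, 7.15 and 4.48 in the intact sums of runs 1, 2 and 3 and 114 in the castrated sum (log2 fold change 3.84, standard error 0.37, edgeR adjusted p = 0.00973), but at 4.43 in the castrated cells of run 1. *Tgfb2*, a TGF-beta ligand, was at 5.19, 5.81 and 2.49 in the intact sums of runs 1, 2 and 3 and 53.2 in the castrated sum (log2 fold change 3.67, standard error 0.37, edgeR adjusted p = 0.00973). The rise of *Gdf15* was therefore seen in 1 of the 2 castrated groups, and those of *Pnliprp1* and *Tgfb2* in both (139.6 and 97.5 CPM in run 1). *Dusp5* (3.81, an ERK phosphatase), *Plat* (3.41, tissue plasminogen activator) and *Slc40a1* (3.38, the iron exporter ferroportin) also rose. With the castrated cells of run 1 added, *Gdf15* (3.07, adjusted p = 0.127) and *Plat* (2.76, adjusted p = 0.125) did not pass.

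*Ang4* and *Ang5*, angiogenins of the ribonuclease A superfamily, had the largest log2 fold changes among the rises that the naming rule took (called, at least 50 CPM). *Ang5* was at 0, 2.24 and 0.497 in the intact sums of runs 1, 2 and 3 and 121 in the castrated sum. *Ang4* was at 0, 4.92 and 4.48 in the intact sums of runs 1, 2 and 3 and 127 in the castrated sum. In run 1 no UMI of either was counted in the intact sum, and the castrated cells of pooled lobes were at 521 and 412 CPM. The edgeR log2 fold changes were 7.26 (adjusted p = 0.00973) and 5.57 (adjusted p = 0.018), and they depend on the prior count because of the 0. The genes are close paralogs, so reads may be split between them or lost. The 250 bases before their starts (RefSeq, GRCm38.p6) are shown because these paralogs rose together; capitals mark a match to TGTGGT, the core letters of RUNX motifs, or its reverse complement ACCACA.
Ang4, chr14:51773591-51773840, minus strand: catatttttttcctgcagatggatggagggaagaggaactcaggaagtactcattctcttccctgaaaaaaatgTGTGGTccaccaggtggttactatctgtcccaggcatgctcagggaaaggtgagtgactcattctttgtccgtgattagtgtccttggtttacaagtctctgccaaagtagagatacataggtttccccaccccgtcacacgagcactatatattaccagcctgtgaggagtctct
Ang5, chr14:43956819-43957068, plus strand: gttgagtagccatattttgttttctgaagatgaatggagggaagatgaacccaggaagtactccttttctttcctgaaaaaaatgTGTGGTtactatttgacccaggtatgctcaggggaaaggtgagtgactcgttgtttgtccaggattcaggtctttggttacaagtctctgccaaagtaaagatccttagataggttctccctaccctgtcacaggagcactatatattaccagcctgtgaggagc
Kcnn4, chr7:24370013-24370262, plus strand: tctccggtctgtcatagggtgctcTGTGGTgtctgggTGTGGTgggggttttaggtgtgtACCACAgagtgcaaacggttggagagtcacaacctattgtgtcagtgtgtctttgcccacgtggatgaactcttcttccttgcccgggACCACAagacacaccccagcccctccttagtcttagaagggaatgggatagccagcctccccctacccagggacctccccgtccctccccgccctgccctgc
The *Ang4* and *Ang5* windows were 89.27% identical over their aligned bases (208 identical). *Kcnn4*, which fell, is shown for its 4 matches. On both strands TGTGGT occurred in 14.18% of 27025 promoters, in 10.15% of those of genes tested, in 12% of 100 higher and in 15.08% of 126 lower genes. Genes without a promoter entry or on a chromosome left out are missing. The shares therefore cover 8351 of 10661 genes tested, 100 of 136 higher and 126 of 171 lower genes. A match of letters is a description and not a binding site.

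Androgen-responsive luminal genes fell in part. Of 24, 0 rose, 4 fell and 20 did not pass, with a median of -1.07, and without *Sbp*-rich cells 8 fell. *Fkbp5* (chr17:28399094-28517527), a co-chaperone of steroid receptors, was at 85.6, 75.1 and 65.6 in the intact sums of runs 1, 2 and 3 and 16 in the castrated sum (log2 fold change -2.11, standard error 0.29, edgeR adjusted p = 0.0179). The 21 *Sbp*-rich castrated cells held most of its 80 castrated UMIs, 16 of which were in the other cells, and without *Sbp*-rich cells its castrated level was 4.07 CPM (log2 fold change -4.13, adjusted p = 0.00238). *Hpgd*, which degrades prostaglandins, was at 250, 149 and 296 in the intact sums of runs 1, 2 and 3 and 28.2 in the castrated sum (log2 fold change -2.90, standard error 0.46, edgeR adjusted p = 0.0264). The castrated sum was below every intact sum in both. *Psca*, described above, is also a member.

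Secretory genes varied widely. Of 23 tested, 1 fell (*Ren1*, renin, log2 fold change -2.20, edgeR adjusted p = 0.0245, but 0.539 with run as a block and 0.112 with the castrated cells of run 1 added) and 22 did not pass. Without *Sbp*-rich cells 4 fell. *Pbsn*, probasin, was at 2523, 1574 and 2268 in the intact sums of runs 1, 2 and 3 and 696 in the castrated sum (log2 fold change -1.47, standard error 0.39, edgeR adjusted p = 0.107). *Tgm4*, the prostate transglutaminase, was at 3751, 2236 and 2932 in the intact sums of runs 1, 2 and 3 and 766 in the castrated sum (edgeR adjusted p = 0.0728, and 0.0396 without *Sbp*-rich cells). Both were below the intact range without passing. Of 10 genes of steroid receptors and androgen enzymes 0 passed, 2 had an unadjusted p under 0.05, and DESeq2 called 0.

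Of 20 epithelial transcription factors, 0 rose and 5 fell, with a median of -1.32, and without *Sbp*-rich cells 8 fell. *Sox2* was at 47.7, 21 and 27.8 in the intact sums of runs 1, 2 and 3 and 1.6 in the castrated sum (log2 fold change -4.14, standard error 0.51, edgeR adjusted p = 0.0141). The other falls were *Osr1* (-5.83), *Barx2* (-3.77), *Mecom* (-3.39) and *Tfcp2l1* (-1.64), all transcription factors of epithelia. Of 9 keratins outside the rule, *Krt4*, *Krt7* and *Krt15* (-3.90) fell and *Krt23* rose. Of 16 glutathione and detoxification genes, 5 fell, namely *Gsta3*, *Gsto1* (-2.72), *Aldh1a1* (-2.71, a retinaldehyde dehydrogenase), *Cbr2* (-2.52) and *Gsta4* (-2.20), and *Gclc* (1.74), of glutathione synthesis, rose. Without *Sbp*-rich cells the log2 fold change was -4.59 for *Aldh1a1* and -3.91 for *Cbr2*.

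Of 11 antimicrobial and mucosal defense genes, *Wfdc2* (-3.47), *Pglyrp1* (-4.00) and *Cxcl15* (-1.89) fell, and with run as a block their adjusted p was 0.198, 0.0578 and 0.128. *Cxcl15* turned in direction when the castrated cells of run 1 were added (log2 fold change 0.22). Of 16 interferon-induced genes 1 rose, *Irf7* (2.48, edgeR adjusted p = 0.0311; 3.11 without *Sbp*-rich cells), with a list median of 1.30, and 6 rose without *Sbp*-rich cells. Of 17 MHC class I genes 0 passed, with a median of 0.57; 7 had an unadjusted p under 0.05 and DESeq2 called 1. Of 14 ID and TGF-beta genes, *Tgfb2*, *Thbs1* and *Tgif1* (1.56) rose and *Id2* (-1.88) fell. In the actin list *Cyr61* (2.38) rose and *Ctgf* (-3.60) fell, both matricellular proteins, of 14 tested; *Ctgf* was at 66.5 CPM in the castrated cells of run 1, above the intact range.

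Of 15 claudins and tight junction genes 1 rose and 1 fell, *Cldn10* (-2.88, and -4.63 without *Sbp*-rich cells). Single genes passed in 4 further lists: *Aldoc* (2.09) of 15 glycolysis genes, *Maff* (1.81) of 23 immediate early genes and *Btc* (2.19, an EGF ligand) of 9 genes of EGF-family ligands and receptors rose, and *Ccnd1* (-1.69, cyclin D1) of 21 proliferation genes fell. With 2.88% of all genes called, a single call in lists of this size is no result about the lists. Without *Sbp*-rich cells the keratin and actin lists held 3 rises each and the integrated stress response list 2. None passed among 29 ER folding, 23 integrated stress response, 80 ribosomal, 78 oxidative phosphorylation, 20 cholesterol, 9 polyamine and 11 zinc genes in this fit. An unadjusted p under 0.05 was found in 1, 7, 0, 3, 2, 1 and 3 of these, and DESeq2 called 2 of the integrated stress response genes and 0 of the others. A missed threshold does not show that they were equal.

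With run as a block, 5.82% of all genes rose and 5.29% fell, and several lists held more calls. Of 17 MHC class I genes 6 rose, among them *H2-K1* (log2 fold change 0.95, edgeR adjusted p = 0.0168), and of 23 integrated stress response genes 6 rose, among them *Atf4* (1.02, adjusted p = 0.0044), and 1 fell. In the claudin and tight junction list 7 of 15 rose and 2 fell, in the interferon list 7 of 16 rose, in the actin list 6 of 14 rose and 1 fell, and in the immediate early list 4 of 23 rose. Of 20 transcription factors 10 fell and of 24 androgen-responsive genes 8 fell. The proximal list then held 16 falls and 2 rises. Of 80 ribosomal genes 7 rose, of 78 oxidative phosphorylation genes 4 fell and of 29 ER folding genes 2 fell, shares near those of all genes.

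The 27 castrated cells of run 1 were also added as a second castrated sum, without a block for run. Of 9834 genes, 201 were called (2.04%). Of the 57 named genes called before, 22 did not pass, 15 of them lower and 7 higher in castrated cells. Besides those given above, the log2 fold changes in that fit were -1.71 for *Wfdc2* (0.254), -1.26 for *Ctgf* (0.562), -1.02 for *Ccnd1* (0.247), -1.96 for *Bcam* (0.27), -2.49 for *Krt15* (0.0976), -2.44 for *Barx2* (0.152) and -1.66 for *Gsta4* (0.0543) among the falls, with edgeR adjusted p in parentheses. Among the rises they were 1.17 for *Gclc* (0.354), 1.90 for *Irf7* (0.145), 1.28 for *Tgif1* (0.0723) and 1.43 for *Maff* (0.0549). *Lmo7*, *Ahr*, *Alcam* and *Cbr2* did not pass there either (edgeR adjusted p = 0.126, 0.0504, 0.0537 and 0.23). With run as a block and the same cells added, 1014 of 9834 genes were called (10.3%), including 285 of the 302 main calls tested. Of the named genes called before, 3 did not pass with that block, which leaves almost no residual degrees of freedom.

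**Figure D4:**
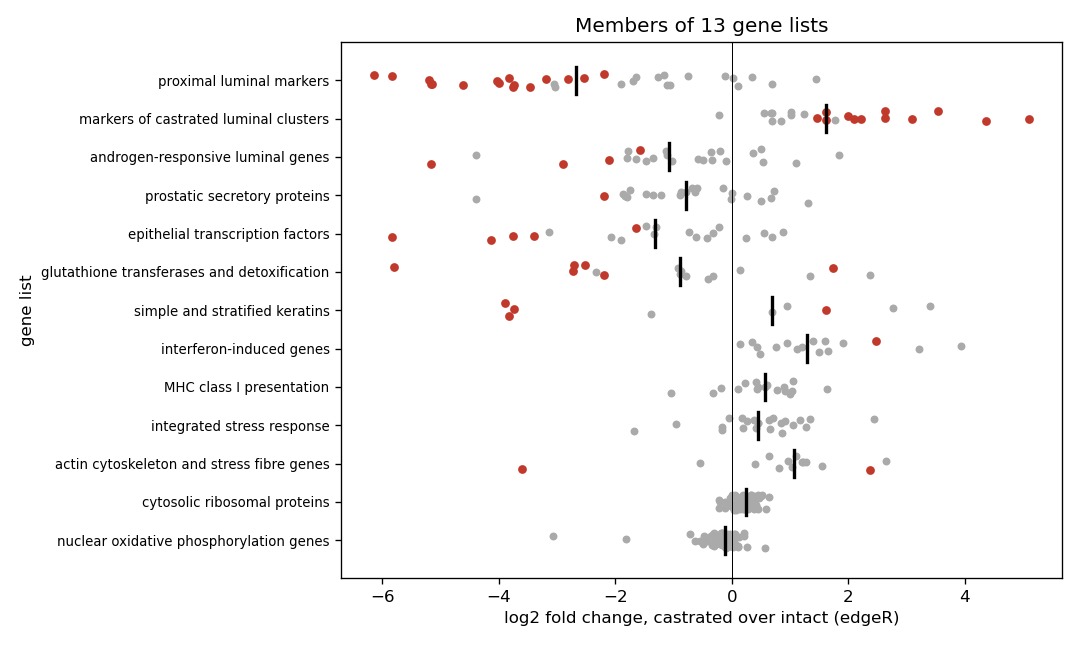
edgeR log2 fold change, castrated over intact, of each tested member of 13 gene lists; red points passed an adjusted p of 0.05, grey did not, and the black bar is the list's median. Proximal luminal markers lie mostly below 0 (median -2.67) and markers of castrated clusters above it (median 1.62).

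Markers of other cell types were measured in the same sums. Hematopoietic markers summed to 53.8, 129 and 114 CPM in the intact sums of runs 1, 2 and 3 and to 158 in the castrated sum, and 0 of 5 tested passed in edgeR or DESeq2 (1 had an unadjusted p under 0.05). *Cd74*, of antigen presentation, was at 6.49, 62.6 and 0 in the intact sums of runs 1, 2 and 3 and 127 in the castrated sum, so it differed by run. Endothelial markers summed to 30.8, 16.1 and 9.95 intact and 13.4 castrated, and fibroblast markers to 5.51, 8.05 and 1.49 against 2.80. Basal markers outside the rule summed to 3123, 1839 and 1915 intact and to 788 castrated. *Krt15* and *Bcam* (-3.35) fell, and the 13 tested basal markers other than *Krt15* summed to 652, 641 and 739.5 intact and 691 castrated. *Krt17* had a log2 fold change of 2.77 (adjusted p = 0.0686), and without *Sbp*-rich cells *Krt17* and *Itga6* rose (adjusted p = 0.0488 and 0.033). *Trp63*, the defining basal factor, was near 0 in all sums, at most 5.47 CPM. Mesonephric and neuroendocrine markers summed to at most 15.9 and 7.78 CPM in the AP sums. Their part in the results was not tested.

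The castration difference was also set beside that of RFP- AP luminal cells of run 2 (71 castrated and 159 intact cells), by an interaction term in the fit with run as a block. This fit was added after the main one. Each castrated population enters it as a single sum, so its p-values measure the spread of intact populations between runs. Of 10661 genes, 218 (2.04%) differed in their castration effect, and 98 of 10640 (0.921%) without *Sbp*-rich cells. Of the named genes, 19 passed, and 8 of these also passed without *Sbp*-rich cells. *Fkbp5* was at 75.1 intact and 16 castrated in RFP+ cells and at 18 and 31.5 in RFP- cells. Without *Sbp*-rich cells it was at 81.5 and 4.07 in RFP+ cells and at 12.7 and 14.6 in RFP- cells, where 12 castrated UMIs remained. *Plet1*, a surface protein of progenitor cells, was at 48.7 and 263 in RFP+ and at 116 and 97.1 in RFP- cells. *Cldn10*, a claudin, was at 297 and 43.6 in RFP+ and at 37.8 and 81.3 in RFP- cells. In all 3 the larger difference was in RFP+ cells, with interaction log2 values of -3.17, 2.63 and -4.06 (edgeR adjusted p = 0.00259, 0.00252 and 0.0056). In RFP- cells *Sbp*-rich cells held 29.2% of intact and 50.2% of castrated UMIs.

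**Figure D5:**
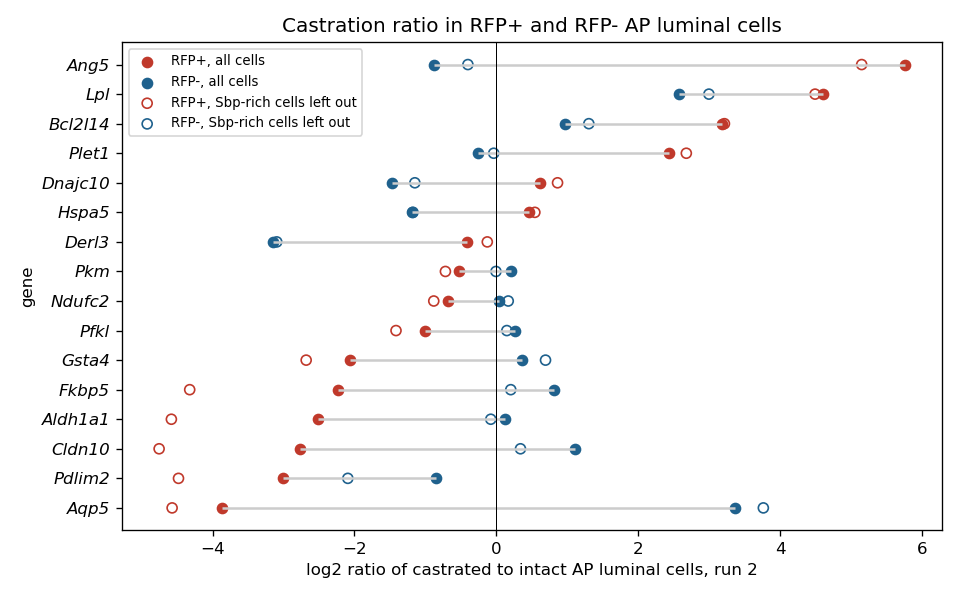
log2 ratio of castrated to intact levels of run 2 for the named genes whose castration effect differed between RFP+ (red) and RFP- (blue) AP luminal cells and that have counts in all 4 sums; open circles leave out *Sbp*-rich cells. *Fkbp5* and *Cldn10* are below 0 in RFP+ and above 0 in RFP- cells, and *Plet1* is above 0 in RFP+ (2.43) and slightly below it in RFP- cells (-0.25).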

How the data were processed

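The authors processed the 10x Genomics 3' v3 reads with Cell Ranger 3.1.0 on mm10 (GRCm38), and the deposited values are raw UMI counts of 31053 genes per cell with MULTI-seq tag counts, without normalization. Each cell sum was a total of deposited counts, and CPM scales each sum to 1000000 UMIs. Reads that fit several genes are dropped in such counting, so near-identical paralogs are less certain. Sums of at least 10 cells were tested in edgeR 4.0.16 (R 4.3.3; TMM, filterByExpr, quasi-likelihood, Benjamini-Hochberg, threshold 0.05). DESeq2 1.42.0 was an alternative. The study tested single cells; sums per run were used here because cells are not replicates. Samples of 1 run deviated together (correlations 0.202 to 0.741 with other intact populations), so runs pair the sums, and a block for run was fitted on 23 sums with 8 residual degrees of freedom, since 4 sums leave none.

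On simulated data for this comparison, edgeR and DESeq2 recovered most large changes, missed most small ones, and both made false calls more often than the threshold names. Shares have exact Clopper-Pearson 95% intervals, which cover counting error only. Named genes were up to 5 tested members of each of 33 lists by lowest p, the genes that define lists in the study, and the 10 largest rises and falls among called genes outside the intact range with at least 50 CPM in the higher group of run 2, without the rule's genes and mitochondrial genes; this gave 158 genes, with some genes not reported here, all matched to the GENCODE annotation. *Cbr2*, *Prlr*, *Lmo7*, *Ahr* and *Alcam* were named after their values were seen where they complete a list. The members and lists were chosen with earlier results of these data known. Doublets were not removed; leaving out the highest 6% of Scrublet scores was an alternative for shares. Python 3.11.15, numpy 2.4.6, scipy 1.17.1, pandas 2.3.3, scanpy 1.11.5 and matplotlib 3.10.9 were used. *Sbp*-rich cells, the castrated run 1 sum and the interaction were added after the data were seen.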

Additional observations from a re-analysis of the deposited data

Results flagged for a closer look

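The castration effect differed between RFP+ and RFP- AP luminal cells in 19 named genes, by the interaction term of the edgeR fit with run as a block. Values are the RFP+ effect minus the RFP- effect on the log2 scale. Each castrated population is a single sum, so the spread between castrated samples is not measured. Those that also passed without *Sbp*-rich cells were 6.14 for *Ang5* (adjusted p 0.017, 0.00514 without *Sbp*-rich cells), -4.06 for *Cldn10* (adjusted p 0.0056, 0.0375 without *Sbp*-rich cells), -3.17 for *Fkbp5* (adjusted p 0.00259, 0.0412 without *Sbp*-rich cells), -2.93 for *Gsta4* (adjusted p 0.0031, 0.00384 without *Sbp*-rich cells) and 2.63 for *Plet1* (adjusted p 0.00252, 0.00514 without *Sbp*-rich cells). The T cell and endothelial genes in the same set rest on few UMIs: -5.37 for *Cd3e* (adjusted p 0.042, 0.0225 without *Sbp*-rich cells), -8.14 for *Egfl7* (adjusted p 0.019, 0.0309 without *Sbp*-rich cells) and -9.60 for *Plvap* (adjusted p 0.0328, 0.0463 without *Sbp*-rich cells), with levels of at most 12.1 CPM in the sums of run 2. They are given as values, since a fitted fold against a sum at or near 0 depends on the prior count.

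Of those that did not pass without *Sbp*-rich cells, the positive values were 1.82 for *Bcl2l14* (adjusted p 0.0165, 0.187 without *Sbp*-rich cells), 2.30 for *Derl3* (adjusted p 0.0182, 0.13 without *Sbp*-rich cells), 2.11 for *Dnajc10* (adjusted p 0.0123, 0.123 without *Sbp*-rich cells), 1.56 for *Hspa5* (adjusted p 0.0199, 0.0785 without *Sbp*-rich cells) and 2.05 for *Lpl* (adjusted p 0.0254, 0.0593 without *Sbp*-rich cells). For *Derl3*, *Dnajc10* and *Hspa5* the log2 ratio of castrated to intact levels in run 2 was -3.14, -1.48 and -1.19 in RFP- cells and -0.42, 0.62 and 0.46 in RFP+ cells, so the larger difference was in RFP- cells. The negative values were -2.77 for *Aldh1a1* (adjusted p 0.00492, 0.084 without *Sbp*-rich cells), -4.97 for *Aqp5* (adjusted p 0.042, 0.0724 without *Sbp*-rich cells), -1.15 for *Ndufc2* (adjusted p 0.0377, 0.0603 without *Sbp*-rich cells), -2.48 for *Pdlim2* (adjusted p 0.0075, 0.0981 without *Sbp*-rich cells), -1.40 for *Pfkl* (adjusted p 0.0299, 0.316 without *Sbp*-rich cells) and -1.18 for *Pkm* (adjusted p 0.0199, 0.2 without *Sbp*-rich cells). *Sbp*-rich cells made up 15 of 123 and 21 of 253 RFP+ cells and 23 of 159 and 17 of 71 RFP- cells of run 2 (intact and castrated), and their part in these differences was not tested beyond leaving them out.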

How the results depend on the processing

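The castrated AP RFP+ group exists once, so its own spread between mice is unknown, and small changes are missed at this size. From 307 calls (136 higher, 171 lower), DESeq2 gave 425 with 261 lower, and no filter on low counts gave 523 (261 higher, 262 lower). Leaving out each intact replicate gave 284 to 579 calls (117 to 279 higher, 157 to 300 lower). With the replicate block for run, whose pairing the runs bear out, 1185 genes were called (621 higher, 564 lower), and 8 lists had at least 3 calls in 1 direction alone (5 before). Cells without *Krt5* or *Krt14* UMIs gave 478 (218 and 260), and cells with a *Krt4* UMI gave 140 (74 and 66). Added after the data were seen, the castrated cells of run 1 gave 201 calls (77 higher), the same with the block 1014 (452 and 562), and leaving out *Sbp*-rich cells 601 (271 and 330). The cause of these shifts was not tested. Thinning to 3000 UMIs, which lowers the depth, gave castrated shares of 6.75% (*Krt4*), 6.35% (*Psca*) and 25.8% (*Runx1*) and intact shares of 46.2% (*Krt4*) and 37.0% (*Runx1*). Of the 57 named genes called, 23 were called the same way under every alternative tried. *Cxcl15* was reversed with the castrated cells of run 1 (0.22) and not called there. With these cells added and no block, 22 of the 57 did not pass, and with the block 3 did not. Without the intact sum of run 2 or of run 3, *Id2*, *Krt23*, *Ccnd1* and *Cxcl15* were not called (adjusted p 0.0593 to 0.087), nor was *Gsta4* without run 2 (0.056) or *Tfcp2l1* (0.0565) and *Tgif1* (0.0638) without run 3.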
